A study of Mus musculus with 4 samples.

Results

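The ephrin ligands are the 8 genes *Efna1* to *Efna5* and *Efnb1* to *Efnb3*, taken by their symbols in GENCODE release M21 from the 55573 Ensembl genes counted in each library. All 8 genes were found, and 7 of them had enough reads to be compared between genotypes, while *Efna1* did not. Mouse embryos at E16, counted from the day of insemination, were dissociated, tdTomato-positive cells were sorted, and their RNA was sequenced, with 2 libraries of *Dnmt1* wild-type cells (WT) and 2 libraries of *Dnmt1* knockout cells (KO). All cells carried *Hmx3-Cre* and a *tdTomato* reporter, so that the sort collected *Hmx3*-derived cells and their descendants. The KO cells in addition carried the *Dnmt1 loxP2* allele, in which Cre removes exons 4 and 5 and leaves a null allele, whereas the WT cells had no such allele. The labels name the basal telencephalon as the dissected region and immature *Hmx3*-derived interneurons as the cell type, and the paper names the preoptic area (POA). Cells were pooled from 12 WT and 6 KO embryos. The labels call the libraries biological replicates and the paper calls them technical duplicates of pooled samples, so the p-values measure the spread between libraries, which may be technical.

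Ephrins are ligands that stay attached to the cell that makes them and are bound by Eph receptor tyrosine kinases on a neighbouring cell. Ephrin-A ligands are held in the membrane by a lipid anchor and mostly bind EphA receptors, whereas ephrin-B ligands span the membrane and mostly bind EphB receptors. Binding starts forward signalling in the receptor cell and reverse signalling in the ligand cell, and often ends in repulsion. In the basal telencephalon this steers migrating cortical interneurons, and ephrin-B3 on POA-derived cells with EphA4 on cells of the medial ganglionic eminence is known for keeping their migratory streams apart.

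DNMT1 methylates cytosines in CG dinucleotides, and the 250 bases before the transcription start are therefore shown for the ligand with the smallest p (*Efnb2*) and for the ligands with the most and the fewest CG (*Efna5* and *Efna4*). They are given 5′ to 3′ on the strand of the gene, with each CG in capitals. The sequences are RefSeq's, on build GRCm38.p6, and 7 of the 8 ligands had an entry, all but *Efnb3*. The windows lie at chr8:8661243-8661492, chr17:62881318-62881567 and chr3:89338029-89338278, all on the minus strand. Each lies directly outside its own gene as annotated in GENCODE M21.
Efnb2: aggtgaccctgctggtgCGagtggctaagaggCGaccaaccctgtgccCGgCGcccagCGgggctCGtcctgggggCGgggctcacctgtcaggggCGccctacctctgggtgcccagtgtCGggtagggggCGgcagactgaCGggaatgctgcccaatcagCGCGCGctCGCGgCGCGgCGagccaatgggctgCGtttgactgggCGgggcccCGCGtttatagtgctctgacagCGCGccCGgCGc
Efna5: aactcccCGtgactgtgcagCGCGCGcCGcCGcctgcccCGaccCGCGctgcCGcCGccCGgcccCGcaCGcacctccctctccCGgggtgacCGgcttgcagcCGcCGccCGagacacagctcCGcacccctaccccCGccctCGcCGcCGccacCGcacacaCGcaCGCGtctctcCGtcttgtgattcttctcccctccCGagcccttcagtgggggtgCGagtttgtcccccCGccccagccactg
Efna4: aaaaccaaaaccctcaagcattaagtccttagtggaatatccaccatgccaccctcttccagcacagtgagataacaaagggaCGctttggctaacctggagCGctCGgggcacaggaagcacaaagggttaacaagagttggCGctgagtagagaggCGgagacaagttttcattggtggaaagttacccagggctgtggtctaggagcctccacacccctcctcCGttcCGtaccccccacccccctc
The *Efnb2* window held 27 CG, the *Efna5* window 32 and the *Efna4* window 7, against a median of 6 over 32851 RefSeq windows of the same length. At least as many CG were found in 8.56% of all windows for *Efnb2*, in 4.58% for *Efna5* and in 46.3% for *Efna4*. CG reads the same on both strands. The other ligand windows held 13 CG (*Efnb1*), 25 (*Efna2*), 16 and 18 (both starts of *Efna1*) and 19 and 31 (both starts of *Efna3*). DNA methylation was not measured in these libraries. The paper describes MeDIP sequencing, a measure of DNA methylation, of WT and KO cells sorted at the same age, which was not used here.

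The libraries held between 8075102 and 9995968 counts, and 3 counts correspond to 0.294 to 0.372 CPM, the depth-scaled unit of edgeR, computed here on TMM-scaled library sizes. The share of mitochondrial rRNA was 8.66% for WT replicate 1, above the 1.51% to 2.32% of the other libraries. *Dnmt1* itself stood at 416 ± 43.4 CPM in WT against 282 ± 1.59 CPM in KO (SD, n = 2). Its log2 fold change of -0.56 narrowly missed an adjusted p of 0.05 (edgeR adjusted p = 0.0511). *Dnmt1* passed with DESeq2 (adjusted p = 0.00843), limma-voom (0.0358), DESeq2's size factors (0.0467), no filter (0.00952) and trends of exon length and base composition removed (0.00247). It did not with library size only, upper-quartile factors or at least 10 counts in every library (up to 0.151). With a library left out, *Dnmt1* passed only where that library was WT. The spread in such a fit comes only from the KO pair, which differed less than the WT pair. Gene-level counts also include the exons outside the deletion, and their part in the *Dnmt1* level of KO was not tested. *Gad1*, which encodes an enzyme of GABA synthesis, was at 156 ± 5.44 CPM in WT and 127 ± 0.644 CPM in KO (SD, n = 2). *Hmx3* was at 84.3 ± 8.11 and 82.8 ± 15.5 CPM, so that markers of the labelled cell type were present. Oligodendrocyte precursor markers were present in WT too, with *Pdgfra* at 726 CPM and a sum of 1280 to 1340 CPM over 5 genes. Among 10 markers of GABAergic and POA neurons none passed in either direction. At an unadjusted edgeR p under 0.05, 2 were lower, beside 8.01% of all genes, and none was higher. The 10 markers summed to 1380 to 1520 CPM in WT and 1180 to 1300 CPM in KO. Among 10 markers of neurons in general 3 were lower in KO with edgeR and 5 with DESeq2, beside 0.57% and 1.47% of all genes, with a sum of 6200 to 6740 CPM in WT and 4540 to 4600 CPM in KO. All 10 astrocyte markers were higher in KO, beside 7.33% of all genes, with a sum of 262 to 277 CPM in WT and 3670 to 3870 CPM in KO, and the defining marker *Gfap* was at 0 counts in both WT libraries. Of 8 markers of mature oligodendrocytes 7 were higher (131 to 155 CPM in WT, 570 to 591 CPM in KO), as were 6 of 7 mural cell markers (58.2 to 63.5 CPM in WT, 360 to 362 CPM in KO). The part of these other cells in the ligand levels was not tested, and in such pools fewer cells of a type cannot be told apart from less RNA per cell.

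Ephrin-B transcripts predominated in the sorted cells, and *Efnb3* led by a wide margin. Per kilobase of merged exons, *Efnb3* stood at 111 and 128 CPM in the WT libraries (replicates 1 and 2) and at 89.2 and 99.4 CPM in the KO libraries. This was 57.4%, 60.7%, 59.2% and 59.5% of the sum over the 8 ligands in the same libraries, so that the share of *Efnb3* in KO lay within its range in WT. In WT, *Efnb1* followed at 23.6 CPM per kb and *Efnb2* at 22.1, which did not differ beyond the spread of the libraries. *Efna2* at 15.7 and *Efna5* at 14.8 CPM per kb came next and again overlapped, as did *Efna4* at 3.08 and *Efna3* at 2.92. *Efna1* was lowest at 0.593 CPM per kb. The order of the mean levels was the same in KO, where the ranges of *Efnb1* and *Efnb2* and those of *Efna2* and *Efna5* no longer overlapped and those of *Efnb2* and *Efna2* did. The 3 ephrin-B genes summed to 157 and 174 CPM per kb in WT and to 122 and 136 in KO. The 5 ephrin-A genes summed to 37.2 and 37.1 CPM per kb in WT and to 28.8 and 31.4 in KO. For both classes, each KO library lay below each WT library.

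**Figure D1:**
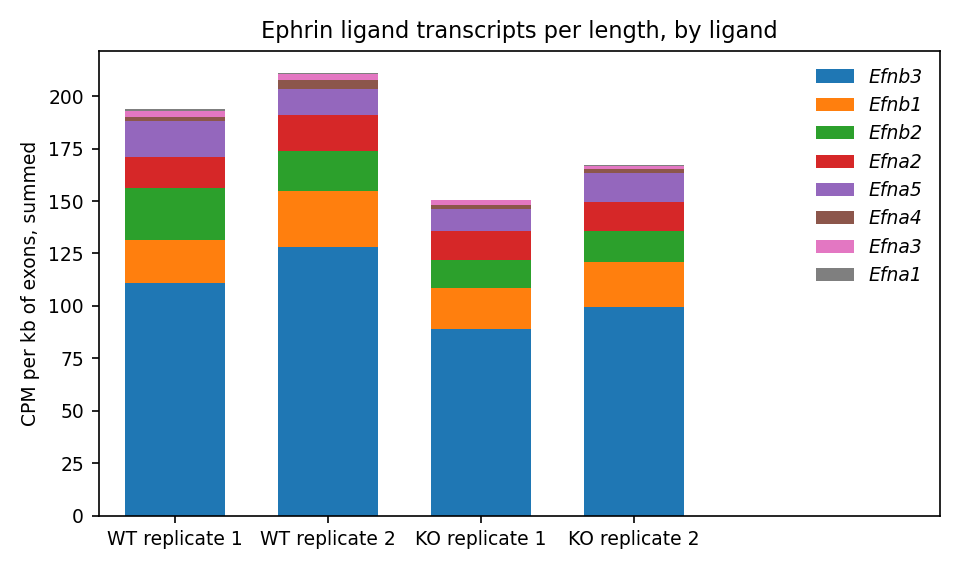
Stacked level of the 8 ephrin ligands in each library, in CPM per kb of merged exons, with 1 bar per library and 1 colour per ligand. *Efnb3* makes up 57.4% to 60.7% of each bar, and both KO bars (151 and 167) are shorter than both WT bars (194 and 211).

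None of the 7 ligands compared was called lower or higher in KO at an adjusted p under 0.05 with edgeR's quasi-likelihood test, although all 7 had a log2 fold change below 0. Over all 16832 genes tested, 0.57% were called lower and 7.33% higher. At an unadjusted p under 0.05, 2 of the 7 ligands were lower (*Efnb2* and *Efnb3*) and none was higher, against 8.01% lower and 14.6% higher of all genes. DESeq2 called 1 ligand, *Efnb2*, lower and none higher (1.47% and 7.4% of all genes). The log2 fold changes ran from -0.69 to -0.18 with a median of -0.35, beside a median of -0.026 over all genes tested, of which 52.4% were below 0. All 7 stayed below 0 under each alternative normalization, filter and test, whereas *Efna4* changed sign without WT replicate 2. In 4 of the 7 ligands, *Efna2*, *Efna3*, *Efnb2* and *Efnb3*, the KO values lay wholly below the WT values, which held for 25.2% of all genes tested. Beside these, the median was -0.56 for the 10 markers of neurons in general and -0.21 for the 10 of GABAergic and POA neurons.

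**Figure D2:**
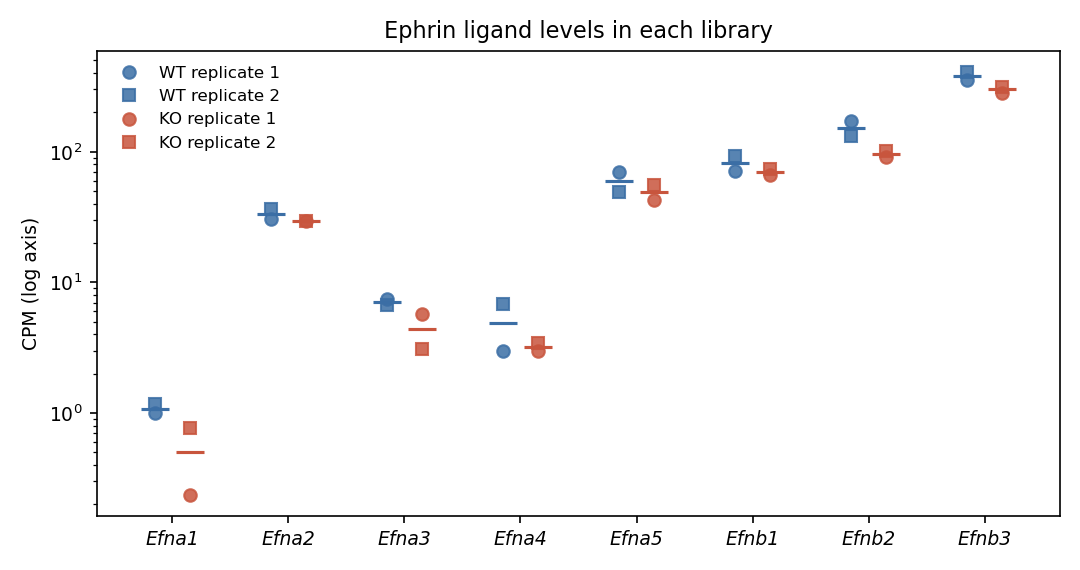
Level of each ephrin ligand in CPM on a log axis, with circles for replicate 1, squares for replicate 2, blue for WT, red for KO and a line at the mean of each genotype. KO lies below WT without overlap for *Efna1*, *Efna2*, *Efna3*, *Efnb2* and *Efnb3*, while the genotypes overlap for *Efna4*, *Efna5* and *Efnb1*.

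*Efnb2* encodes ephrin-B2, the ligand of EphB4 that marks arterial endothelium and is also carried by neurons and neural progenitors. The gene (ENSMUSG00000001300) occupies bases 8617434 to 8661242 of chromosome 8 (GRCm38), minus strand. The WT libraries gave 1376 (replicate 1) and 1355 (replicate 2) reads of *Efnb2*, and the KO libraries 767 and 924. Both KO libraries were thus below both WT libraries, by a gap wider than that between the KO libraries but narrower than that between the WT libraries in CPM. The level was 152 ± 26.9 CPM in WT and 96.5 ± 7.48 CPM in KO (SD, n = 2), so that KO stood at 63.6% of WT. The log2 fold change was -0.65 (standard error 0.17, 95% interval -1.04 to -0.26), and it narrowly missed the threshold over all genes (edgeR adjusted p = 0.0566, unadjusted p = 0.00478). A fold change this low or lower was found in 5.58% of the genes tested.

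The direction of *Efnb2* held in all 13 alternatives, but the call depended on the processing. It passed the threshold with DESeq2 (adjusted p = 0.00977), with DESeq2's size factors in edgeR (adjusted p = 0.0445), without a filter on low counts (adjusted p = 0.00414) and once trends with exon length and base composition were removed (adjusted p = 0.0115, beside 5.43% of all genes lower). It missed it with limma-voom, with library size only, with upper-quartile factors and with at least 10 counts in every library, up to an adjusted p of 0.0835. Without WT replicate 1, the edgeR log2 fold change was -0.47, and without WT replicate 2 it was -0.83. Leaving out KO replicate 1 gave -0.56 and leaving out KO replicate 2 gave -0.73. The fits without a KO library did not pass. Those without a WT library did, but their spread comes only from the KO pair, which differed less than the WT pair. As for endothelial cells, the defining markers were low in all libraries, with 12 to 36 counts of *Pecam1*, 8 to 11 of *Cdh5* and 7 to 32 of *Cldn5*. Of 9 endothelial markers, 7 were tested and 1, the thyroid hormone transporter gene *Slco1c1*, was higher in KO, beside 7.33% of all genes, with a sum of 22.3 to 22.5 CPM in WT and 148 to 149 CPM in KO. Of the KO sums *Slco1c1* alone made up 124 and 122 CPM, against 1.37 and 0.784 CPM in WT. Of 7 arterial markers, 4 were tested and 1 (*Gja4*) was higher, with a sum of 271 to 303 CPM in WT and 247 to 250 CPM in KO that was mostly *Nrp1*, a gene neurons also carry.

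**Figure D3:**
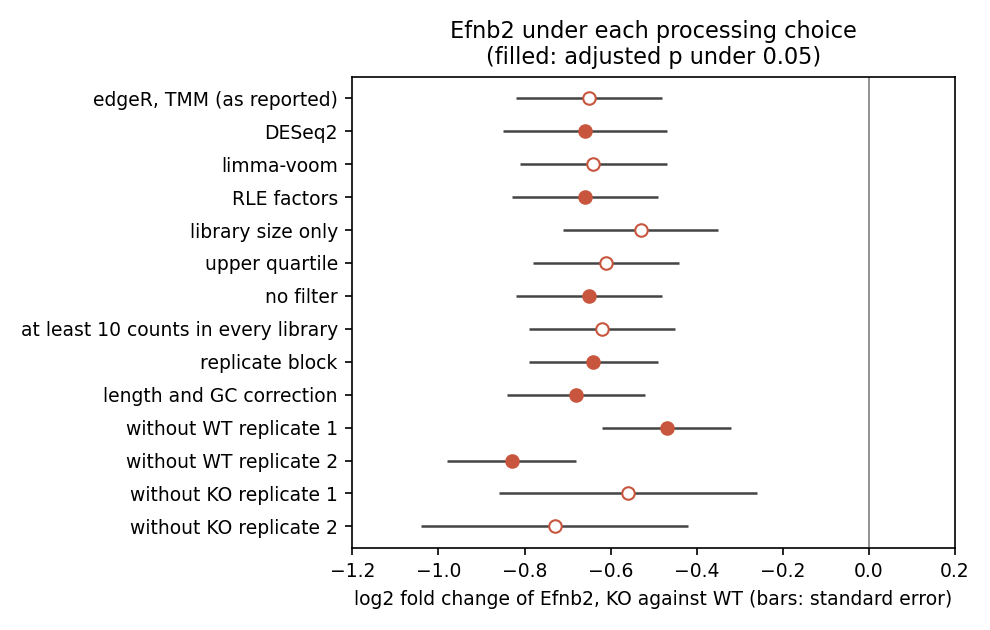
Log2 fold change of *Efnb2* between KO and WT under the reported analysis and 13 alternatives, with the standard error as a bar and filled points where the adjusted p is under 0.05. All points lie between -0.83 and -0.47, and the calls fall on both sides of the threshold.

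*Efnb3* encodes ephrin-B3, a repellent for axons at the midline and the ligand known from POA-derived interneurons. It lies on chromosome 11 from 69554092 to 69560205 on the minus strand (ENSMUSG00000003934). The most abundant ligand, it was counted 2857 and 4170 times in the WT libraries and 2388 and 2873 times in KO, or 355 and 409 CPM against 284 and 316 CPM. Both KO libraries were below both WT libraries, and KO stood at 78.7% of WT. The log2 fold change was -0.35 (standard error 0.15, 95% interval -0.68 to -0.01), which did not pass over all genes (edgeR adjusted p = 0.206). With trends of exon length and base composition removed it was -0.47 and passed (adjusted p = 0.0106). In the other fits with all libraries it did not pass, up to an edgeR adjusted p of 0.525 with library size only. With a library left out, the log2 fold change ran from -0.45 to -0.25. It then passed only without WT replicate 1, where the spread comes only from the KO pair. The longest transcript of *Efnb3* has a GC content of 57.6% and that of *Efnb2* 50.4%.

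*Efnb1* encodes ephrin-B1, an X-linked ligand that forms tissue boundaries and is carried by cortical progenitors. It lies on the X chromosome from 99136130 to 99148991 on the plus strand (ENSMUSG00000031217). Its 4 values were 70.9 and 92.2 CPM in WT and 66.8 and 73.8 CPM in KO. The genotypes overlapped, since KO replicate 2 was above WT replicate 1. The log2 fold change was -0.22 (standard error 0.17, 95% interval -0.61 to 0.18, edgeR adjusted p = 0.499). *Efnb1* passed the threshold in none of the alternatives, with a smallest adjusted p of 0.0561 without WT replicate 1.

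*Efna5* and *Efna2* encode the ephrin-A ligands that guide retinal axons to their places in the midbrain, and they were the most abundant ephrin-A genes here. *Efna5* lies on chromosome 17 from 62604184 to 62881317 (ENSMUSG00000048915) and had 70.0 and 49.4 CPM in WT and 42.6 and 55.3 CPM in KO. KO replicate 2 lay between the WT libraries. The log2 fold change of *Efna5* was -0.28 (standard error 0.21, 95% interval -0.77 to 0.21, edgeR adjusted p = 0.471). It was -0.53 without WT replicate 2 and -0.02 without WT replicate 1. *Efna2* lies on chromosome 10 from 80179482 to 80190010 (ENSMUSG00000003070) and was the steadiest ligand in KO, with 29.6 CPM in both libraries against 30.7 and 36.4 CPM in WT. The KO libraries were below WT by less than the gap within WT. Its log2 fold change was -0.18 (standard error 0.18, 95% interval -0.59 to 0.22, edgeR adjusted p = 0.581).

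*Efna1*, *Efna3* and *Efna4* lie within 1 stretch on the minus strand of chromosome 3 (89271733 to 89338028; ENSMUSG00000027954, ENSMUSG00000028039 and ENSMUSG00000028040) and were the scarce ligands. *Efna3*, whose product acts between astrocytes and dendritic spines in the hippocampus, gave 60 and 69 reads in the WT libraries, against 48 and 28 in KO. Both KO libraries were lower, and they differed more from each other than the WT libraries did. The log2 fold change of *Efna3* was -0.69 (standard error 0.38, 95% interval -1.58 to 0.19, edgeR adjusted p = 0.326), the lowest of the 7 ligands tested, with an interval that includes 0. It was -0.31 without KO replicate 2 and -1.19 without KO replicate 1. *Efna4*, which is known from the sutures of the skull, gave 24 and 70 WT reads, against 25 and 31 from KO. WT replicate 1 was as low as the KO libraries, so that the difference rested on WT replicate 2. The log2 fold change of *Efna4* was -0.63 (standard error 0.48, 95% interval -1.73 to 0.47, edgeR adjusted p = 0.472). Without WT replicate 1 it was -1.11, and without WT replicate 2 it turned to 0.09. *Efna1*, an endothelial ligand of EphA2, gave 8 and 12 WT reads, against 2 and 7 from KO. It lay near the floor of 3 counts, and without a filter its difference was -1.07 on the log2 scale (SE 1.00, edgeR adjusted p = 0.72), so that a difference was not detectable at this depth. The antisense gene *Gm15998* covers 14.1% of the exonic bases of *Efna3*, with 2 and 0 WT reads against 5 and 13 from KO. The antisense gene *4731419I09Rik* covers 10.5% of those of *Efna4*, with 2 to 5 counts per library. As the strand setting of the counting is not given in the sources used here, reads of these pairs cannot be told apart in the overlaps.

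Among the Eph receptors, to which the ligands bind, a pair of EphB genes was higher in KO. Of the 14 receptor genes 13 were tested, and 2 were higher and none lower in KO, beside 7.33% and 0.57% of all genes (4 were lower and 3 higher at an unadjusted p under 0.05, beside 8.01% and 14.6%, and DESeq2 called the same number higher and none lower). *Ephb4*, the receptor of ephrin-B2 that marks veins, gave 18 and 41 WT reads, against 78 and 105 from KO. Both KO libraries were above both WT libraries, higher by 1.71 on the log2 scale (SE 0.37, edgeR adjusted p = 0.0281), which missed the threshold without KO replicate 2 (adjusted p = 0.0942). *Ephb3* stood at 48.6 ± 4.37 CPM in WT against 77.2 ± 10.1 CPM in KO (SD, n = 2), higher by 0.67 on the log2 scale (SE 0.16, edgeR adjusted p = 0.0458). *Ephb3* lost the call with limma-voom (adjusted p = 0.0508), without KO replicate 1 (adjusted p = 0.0961) and without KO replicate 2 (adjusted p = 0.554). The receptors with the highest level per length in WT, *Ephb2* at 26.7 CPM per kb and *Epha4* at 26.0, were at 22.6 and 21.5 in KO and were not called (edgeR adjusted p = 0.338 and 0.273). Of the 8 EphA receptors tested, 7 had a log2 fold change below 0 (median -0.45), and in 5 the KO values lay wholly below the WT values, beside 52.4% and 25.2% of all genes. The exception was *Epha2*, with 4 and 0 WT reads against 12 and 26 from KO and a log2 fold change of 3.18, which was not called (edgeR adjusted p = 0.113). *Epha2* passed without a filter (edgeR adjusted p = 0.0102), with library size only (0.0326) and with trends of exon length and base composition removed (0.0485). Its WT reads lay near the floor of 3 counts, and it passed the filter on low counts through the KO libraries only. The 9 EphA genes summed to 66.7 and 61.6 CPM per kb in WT and to 49.9 and 49.1 in KO, whereas the 5 EphB genes summed to 57.8 and 63.5 in WT and to 58.7 and 64.3 in KO.

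**Figure D4:**
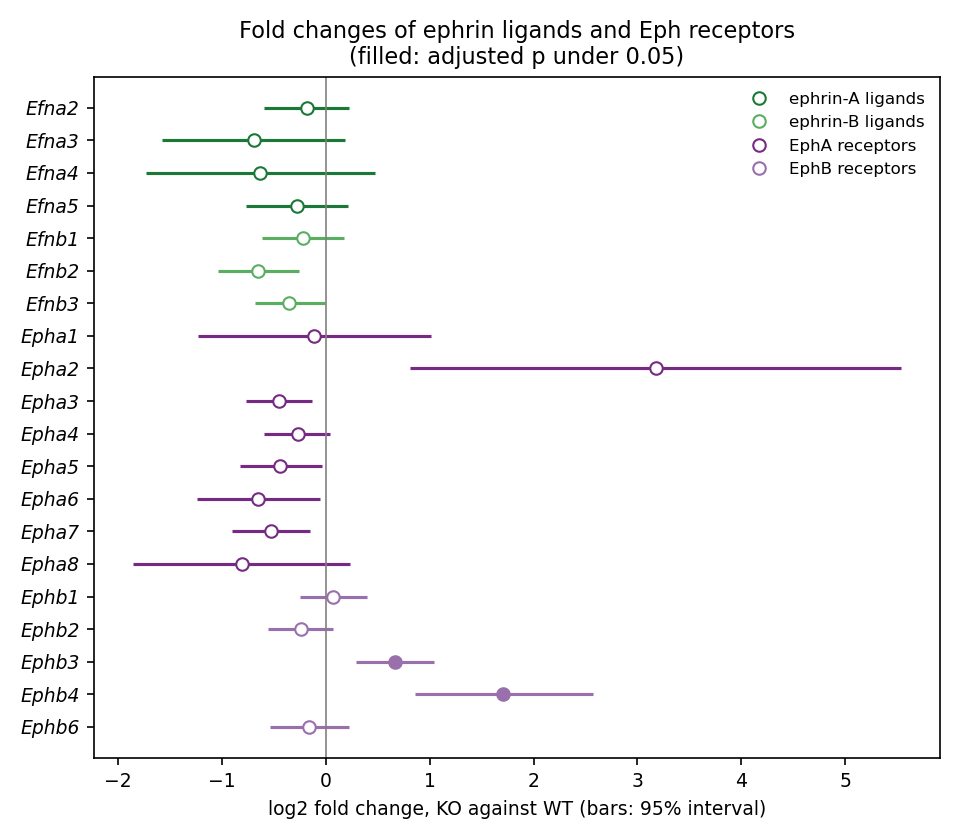
Log2 fold change between KO and WT of the 7 ligands and 13 receptors tested, with 95% intervals and filled points where the edgeR adjusted p is under 0.05. All ligands lie left of 0 with open points, and the only filled points are *Ephb3* (0.67) and *Ephb4* (1.71).

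Downstream of the receptors, 3 of 27 genes for forward signalling were higher in KO and none lower, beside 7.33% and 0.57% of all genes (3 higher and 4 lower at an unadjusted p under 0.05, beside 14.6% and 8.01%, and 3 higher and 2 lower with DESeq2, beside 7.4% and 1.47%). The lower genes with DESeq2 were *Cdc42* (adjusted p = 0.0278) and *Ptpro* (adjusted p = 0.0281). *Ngef*, the exchange factor ephexin-1 that is bound by EphA receptors, rose from 11.0 ± 3.66 CPM to 55.4 ± 1.69 CPM (SD, n = 2), or 2.31 on the log2 scale (SE 0.24, edgeR adjusted p = 0.000599). *Inppl1*, which encodes the lipid phosphatase SHIP2, rose by 1.46 on the log2 scale (edgeR adjusted p = 0.00156). *Vav3*, a guanine nucleotide exchange factor, rose by 1.03 (edgeR adjusted p = 0.0141) and lost the call without KO replicate 1 (adjusted p = 0.066) or KO replicate 2 (adjusted p = 0.0878). Of 14 genes for reverse signalling, 1 was higher and none lower (3 higher and 1 lower at an unadjusted p under 0.05, and 2 higher and none lower with DESeq2). The shares of all genes higher were 7.33%, 14.6% and 7.4% by these rules, and those lower were 0.57%, 8.01% and 1.47%. The called gene was *Dock1*, an activator of Rac, with 34.7 ± 5.15 CPM in WT and 134 ± 3.04 CPM in KO (SD, n = 2) and a rise of 1.94 on the log2 scale (SE 0.16, edgeR adjusted p = 0.000208). *Grip1* and *Pick1*, whose PDZ proteins bind the tail of ephrin-B ligands, had log2 fold changes of -0.11 and 0.06 and were not called (edgeR adjusted p = 0.713 and 0.887).

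Of 7 genes for proteases that cut ephrins or Eph receptors, 5 were tested and 1, *Mmp9*, was higher, beside 7.33% of all genes, with 38 and 60 WT reads against 135 and 121 from KO. The rise was 1.46 on the log2 scale (SE 0.29, edgeR adjusted p = 0.0169), and it did not pass without KO replicate 1 (adjusted p = 0.0753). *Adam10*, which sheds ephrin-A ligands, had 147 and 68.5 CPM in WT and 87.7 and 80.2 CPM in KO, so that both KO libraries lay between the WT libraries. *Rhbdl2*, a rhomboid protease that cuts ephrin-B3, was at 0 reads in WT and at 9 and 15 reads in the KO libraries and was not tested. Over the receptors, partners and proteases together, 7 of 58 tested genes were higher and none lower in KO, beside 7.33% and 0.57% of all genes. At an unadjusted p under 0.05, 10 were higher and 9 lower, beside 14.6% and 8.01% of all genes. With DESeq2 8 were higher and 2 lower, beside 7.4% and 1.47% of all genes.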

How the data were processed

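RNA sequencing of sorted tdTomato-positive cells at E16 was analysed for 2 WT and 2 KO libraries. Raw counts of reads for each Ensembl gene were deposited by the authors as 1 list per library, without normalization. The submitters' processing notes name CASAVA 1.8.2, STAR 2.5.2a and featureCounts 1.5.0-p1 and the builds mm10 and GRCm38, and strand and multi-mapping settings are not given in the sources used here. Symbols, positions and exon lengths were taken from GENCODE M21 (GRCm38), which matched 55480 of 55573 identifiers.

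The 16832 genes that passed filterByExpr of edgeR were compared after TMM scaling by the quasi-likelihood test of edgeR 4.0.16 (R 4.3.3), with genotype as the only term and Benjamini-Hochberg adjustment over all of them. Standard errors came from the test statistic. CPM values used the TMM-scaled library sizes of the tested genes, and CPM per kb divided them by merged exon length. Floors of 3 counts cover counting error. Chi-square over degrees of freedom was 57.2 for the WT pair and 4.28 for the KO pair, above sampling noise in both, and each library was counted as 1 sample.

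Named were all ligands, *Dnmt1*, called receptors, partners and proteases (up to 5 per list and direction), the 2 receptors with the highest level per length in WT, and defining markers. *Grip1*, *Pick1*, *Adam10*, *Rhbdl2*, *Slco1c1*, *Gja4*, *Nrp1*, *Epha2*, *Epha3*, *Cdc42*, *Rasa1* and *Ptpro* were added after their values were seen. Genes resembling called ligands were to be named, but none was called. The family, the lists and the tests were chosen with earlier results of these data known.

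Alternatives were DESeq2 1.42.0, limma-voom (limma 3.58.1), DESeq2's size factors, library size only, upper-quartile factors, other filters, the replicate number as a block, removal of each library's trend over exon length and GC (natural splines, 5 degrees of freedom, centred at 0), each library left out, and an adjusted p under 0.1. The fits were also run on simulated counts with the same spread in both genotypes and larger changes than those of the ligands. Their behaviour at the unequal spread of these libraries was not tested.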

Additional observations from a re-analysis of the deposited data

How the results depend on the processing

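The replicate numbers mark no shared animal or batch in the labels, and same-numbered libraries deviated together with a correlation of 0.137 over 16832 genes. With the replicate block, 1 ligand was lower (*Efnb2*, log2 fold change -0.64, adjusted p = 0.0114), and 4 receptors, partners and proteases were lower in place of 0. Of all 16832 genes, 619 were lower in place of 96, and 1625 were higher in place of 1233. The 4 receptors, partners and proteases were *Epha3*, *Cdc42*, *Rasa1* and *Ptpro*, and genes higher numbered 3 in place of 1 for reverse signalling. Among markers, genes lower numbered 6 in place of 3 for neurons in general and 3 in place of 1 for erythroid cells, and genes higher 4 in place of 1 for oligodendrocyte precursors, 4 in place of 2 for microglia and 3 in place of 1 for radial glia. *Dnmt1* passed as well (adjusted p = 0.0149). The number of ligands lower was also 1 with DESeq2, DESeq2's size factors, no filter or an adjusted p under 0.1, and 2 with the length and GC correction (*Efnb2* and *Efnb3*), beside 0 as reported. It was 0 to 3 when each library was left out, with 3 without WT replicate 1 (*Efna4*, *Efnb2*, *Efnb3*) and 2 without WT replicate 2 (*Efna5*, *Efnb2*), and the number higher stayed at 0 in all alternatives.

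*Efnb2* had log2 fold changes of -0.66 with DESeq2 and with its size factors, -0.65 without a filter and -0.68 with the correction, where it passed, and -0.83 to -0.47 with a library left out. *Efnb3* had -0.47 with the correction, where it passed, and -0.45 to -0.25 with a library left out. The ranges with a library left out were -1.11 to 0.09 for *Efna4*, which reversed to 0.09 without WT replicate 2, -0.53 to -0.02 for *Efna5*, -1.19 to -0.31 for *Efna3*, -0.31 to -0.06 for *Efna2* and -0.4 to -0.02 for *Efnb1*. These fits assume that the lone library varies like the other genotype, and their prior degrees of freedom were 435, 670 or infinite, which gives little weight to the spread of a single gene.

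Receptors, partners and proteases higher in KO numbered 11 in place of 7 without a filter and 4 to 11 with a library left out. Those lower numbered 2 with DESeq2 or the correction, 3 without a filter or at an adjusted p under 0.1, and 0 to 13 with a library left out. Over all genes, those higher numbered 1909 with the correction in place of 1233, and 900 to 2578 with a library left out. Those lower numbered 247 with DESeq2, 573 without a filter, 52 with at least 10 counts in every library, 914 with the correction, 318 at an adjusted p under 0.1, and 51 to 2180 with a library left out. With library size only, the median over all genes moved from -0.026 to 0.084, and no ligand changed sign. The causes were not tested. At this depth *Efna1*, *Efna3* and *Efna4*, with 2 to 70 counts, allow no narrow interval.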

Other observations

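Of the other cell types whose markers were listed, 1 of 5 oligodendrocyte precursor genes was higher in KO with edgeR and 2 with DESeq2 (sums of 1280 to 1340 CPM in WT and 1630 to 1710 CPM in KO), as were 2 of 7 tested microglial genes (3 with DESeq2, 32.8 to 37.8 CPM and 68.0 to 74.7 CPM) and 1 of 8 radial glia and progenitor genes (1060 CPM in both WT libraries and 1110 to 1150 CPM in KO). Of 3 tested choroid plexus genes 1 was lower, *Ttr*, which carries thyroid hormone in the cerebrospinal fluid, with 329 and 564 WT reads against 8 and 10 from KO. Of 5 erythroid genes 1 was lower (2 with DESeq2), with sums of 30.7 to 44.7 CPM in WT and 18.9 to 19.2 CPM in KO. Over all genes, edgeR called 7.33% higher and 0.57% lower.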
